A study of Homo sapiens with 6 samples.

Results

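Small nucleolar RNA host genes are genes whose introns carry small nucleolar RNAs (snoRNAs). The set described here was taken by name from a table of read counts per gene and holds every gene named SNHG followed by a number, plus GAS5, ZFAS1 and TAF1D. It came to 29 of the 22004 genes in the table, and 28 of the 29 passed the filter on low counts and were tested among 16330 genes. All of the RNA came from H1299, an established human lung cancer cell line labelled as wild type and epithelial-like. Cells received 1.5 µM AVJ16, a small molecule that targets the RNA-binding protein IGF2BP1, or a matching amount of its solvent DMSO, for 48 h. There were 3 poly(A) RNA libraries for each treatment, called A, B and C (DMSO) and D, E and F (AVJ16) after the columns of the table. The study describes its experiments as done in biological repeats and the RNA-seq as done in triplicate, while the labels do not say which culture each library came from. The p-values measure the spread between these libraries. AVJ16 was tested at a single dose and time, in a single cell line.

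Many snoRNAs, though not all, guide chemical modification of ribosomal RNA. Among those that do, box C/D snoRNAs direct methylation of the ribose and box H/ACA snoRNAs direct conversion of uridine to pseudouridine. In human cells most snoRNAs are cut out of introns after splicing, and the spliced exons are then exported as a transcript in its own right. For most host genes of this set that spliced RNA codes for no known functional protein. Many of these RNAs begin with a terminal oligopyrimidine (TOP) tract, as mRNAs of the translation machinery do, and they are engaged by ribosomes that meet an early stop codon. Such RNAs are targets of nonsense-mediated decay, a pathway that depends on translation, and GAS5 is the textbook case of a host RNA that accumulates when translation is blocked. The counts are per gene, from poly(A) RNA, and do not separate spliced host RNA from polyadenylated RNA that keeps introns. In the GENCODE annotation the exons of all transcripts of SNHG1 merge into 1 block of 3976 bases, and those of SNHG8 into 1 block of 6614 bases. Each block spans the whole gene, with the positions of its snoRNAs. The snoRNAs lack a poly(A) tail, and 0 genes named SNORA or SNORD were in the table.

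With AVJ16, 7 of the 28 tested host genes rose and 0 fell (edgeR quasi-likelihood test, Benjamini-Hochberg adjusted p below 0.05). Over all genes tested, 5.87% were called higher and 8.77% lower. The genes that rose were SNHG6, ZFAS1, TAF1D, SNHG8, SNHG12, GAS5 and SNHG1, by 1.51-fold to 1.84-fold. At an unadjusted p below 0.05, 14 host genes were higher and 1 was lower, against 13.8% and 17.0% of all genes. The DESeq2 Wald test called 11 higher and 0 lower, against 5.23% and 6.15% of all genes. The fitted log2 fold change was above 0 in 22 host genes and below 0 in 6, with a median of 0.47, against -0.01 over all genes tested. AVJ16 library D was lower than both other AVJ16 libraries in 24 of the 28 host genes, and without it 19 host genes were higher and 1 lower, where 17.6% of all genes were higher and 19.6% lower.

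GENCODE 44 annotated 28 of the set as long noncoding RNA genes and 1, TAF1D, as protein coding. RefSeq placed 153 snoRNA genes within the bounds of 28 of the 29 host genes, and none within SNHG27. Of these, 122 were named as box C/D snoRNAs, 27 as box H/ACA snoRNAs and 4 as scaRNAs, the related guides that act in Cajal bodies. SNHG14 held 83 of them, in the imprinted Prader-Willi and Angelman region of chromosome 15. GAS5 held 11, SNHG1 and TAF1D held 8 each, SNHG12 and SNHG17 held 4 each, and every other host gene held 3 or fewer.

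The annotated start of the transcript was read for each host gene because a TOP tract is defined by it. A tract was called where the start base was a C and at least the next 4 bases were C or T, read on the strand of the gene. In the RefSeq starts (GRCh38.p14), 7 of the 24 tested host genes with a start in the promoter table had such a tract, against 5.05% of the starts of all genes tested and 4.07% of the 35116 promoters in the table. In the canonical starts of GENCODE 44, 5 of 28 host genes had a tract, against 4.96% of all genes tested. A match is a description of these letters and does not show where transcription began in H1299 cells. The sequences below run 5′ to 3′ from 8 bases before the start to 18 bases from it, with the tract in capitals. They are given for the RefSeq starts with a tract and for the GENCODE start of GAS5. The RefSeq starts of SNHG1 and SNHG8, which rose and had no tract there, are also given. The GENCODE start of SNHG29, which did not pass the test, had a tract as well and is not shown.
TAF1D (chr11:93741478-93741503, minus strand): tagccaacCCTTTTCTTCCgcacggt
SNHG12 (chr1:28581856-28581881, minus strand): ttcagcgcCCTTTCTCCCCgccgcat
ZFAS1 (chr20:49278634-49278659, plus strand): cattcgttCTTTCgcgtctgcggtgc
GAS5, GENCODE start (chr1:173867972-173867997, minus strand): catactgtCTTTTCgaggtaggagtc
SNHG5 (chr6:85678716-85678741, minus strand): acttcggtCTTTTacgtcggccttcg
SNHG19 (chr16:2155341-2155366, minus strand): gcccctgtCTTTTCggggtcgagtcc
SNHG32 (chr6:31834908-31834933, plus strand): ttttagttCTTTTTgcgaagtgggct
SNHG4 (chr5:139274093-139274118, plus strand): cccggctgCCCTTTCCCCTCCggcct
SNHG1 (chr11:62855868-62855893, minus strand): gattcgttctcatttttctactgctc
SNHG8 (chr4:118278754-118278779, plus strand): cggcctttcacattcgggaagcgtcg

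Of the 7 host genes with a tract at the RefSeq start, TAF1D, SNHG12 and ZFAS1 rose, and SNHG5, SNHG19, SNHG32 and SNHG4 did not pass the test. Of the 17 without a tract there, 3 rose. Over all genes tested, 7.99% of those with a tract at a RefSeq start and 5.64% of the others were called higher. With the GENCODE starts, 4 of 5 host genes with a tract and 3 of 23 without it rose, against 9.42% and 5.67% of all genes. The tract depended on the annotation in most host genes that had it. TAF1D, SNHG12 and ZFAS1 had a tract in both annotations. SNHG5, SNHG19, SNHG32 and SNHG4 had it only at the RefSeq start, and GAS5, which rose, and SNHG29, which did not pass, only at the GENCODE start.

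The libraries held 19353830 to 30253721 counts, and the biological coefficient of variation was 13.5%. AVJ16 library D differed from E and F. Mitochondrially encoded genes took 11.9% of its counts and 5.13% to 6.66% of those of the other 5 libraries. VIM, a mesenchymal marker, was at 5699 ± 458 CPM (counts scaled to the size of the library; SD, n = 3) in DMSO libraries and the epithelial keratins KRT8 and KRT18 at 307 ± 22.5 and 487 ± 34.5 CPM. The epithelial marker EPCAM was at 0.432 ± 0.121 CPM and the lung lineage factor NKX2-1 at 0.740 ± 0.247 CPM, both close to 0. VIM was at 7489 ± 72.1 CPM with AVJ16 (log2 0.39 ± 0.11; adjusted p = 0.0449, edgeR). The epithelial cadherin CDH1 went from 1.45 ± 0.157 to 0.234 ± 0.182 CPM (log2 -2.53 ± 0.40; adjusted p = 0.00479). Other markers went the other way without passing the test. KRT8 and KRT18 had log2 fold changes of 0.33 ± 0.13 and 0.15 ± 0.16 (adjusted p = 0.113 and 0.583, edgeR). The mesenchymal cadherin CDH2 had -0.21 ± 0.15 (adjusted p = 0.391). Without D, KRT8, KRT18 and CDH2 had 0.45, 0.32 and -0.40, and all passed (adjusted p = 0.000623, 0.0124 and 0.00206, edgeR). Of 10 markers of blood, endothelial, stromal and liver cells, 2 passed the filter, and their summed level was 1.03 to 1.47 CPM in DMSO libraries and 1.42 to 3.24 CPM in AVJ16 libraries. IGF2BP1 itself was at 266 ± 1.49 CPM with DMSO and 246 ± 11.7 CPM with AVJ16 (adjusted p = 0.441, edgeR).

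The 28 host genes together held 2549.5, 2530.1 and 2360.8 CPM in DMSO libraries A, B and C. In AVJ16 libraries D, E and F they held 2876.4, 3787.9 and 3627.2 CPM. On this scale all 3 AVJ16 libraries were above all 3 DMSO libraries, with D the closest to DMSO. As a share of unscaled counts, the set of 29 took 0.2643%, 0.2582% and 0.25% in A, B and C. Its share was 0.2675% in D, close to that of A, and 0.3669% and 0.3578% in E and F. The 79 ribosomal protein genes, whose mRNAs also begin with TOP tracts, summed to 68725 to 76957 CPM in DMSO libraries, 68848 CPM in D, and 94026 and 82621 CPM in E and F.

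**Figure D1:**
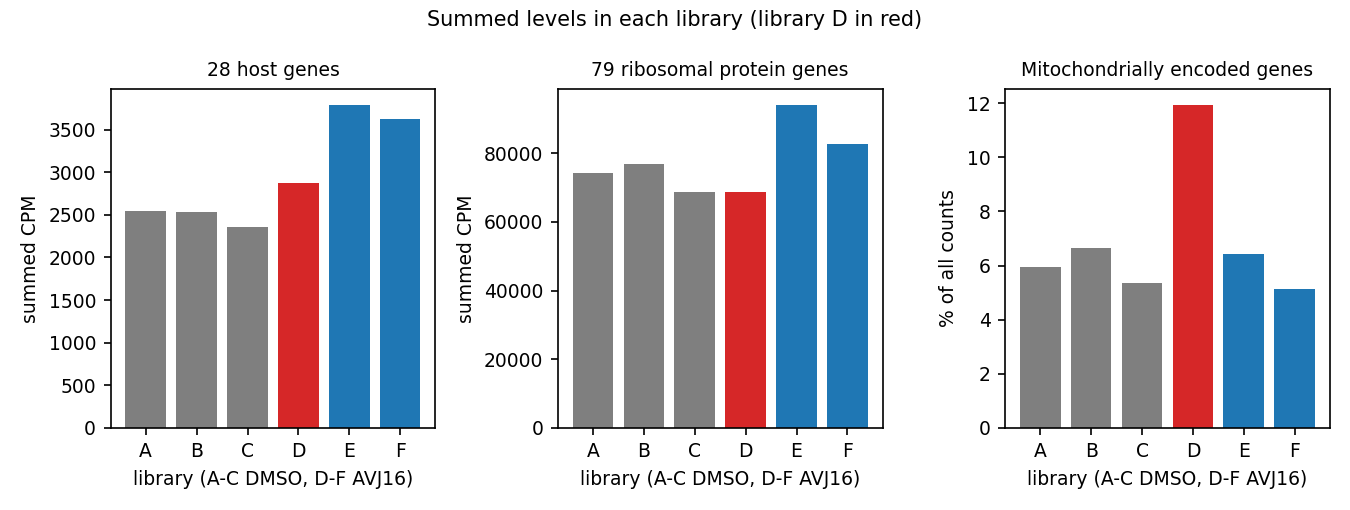
Bars give the summed CPM of the 28 tested host genes (left), the summed CPM of 79 ribosomal protein genes (middle) and the percent of counts from mitochondrially encoded genes (right) in DMSO libraries A to C (grey) and AVJ16 libraries D (red), E and F (blue). The host genes reached 2876.4 CPM in D, 3787.9 in E and 3627.2 in F, and the mitochondrial share was 11.9% in D.

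Among the host genes that rose, SNHG6 had the highest fold change. SNHG6 (chr8:66920561-66926398, minus strand; ENSG00000245910) hosts the box C/D snoRNA SNORD87. It was measured at 135, 151 and 119 CPM in DMSO libraries A, B and C, and at 278, 237 and 231 CPM in AVJ16 libraries D, E and F. The groups did not overlap, and D was the highest library. Its fold change was 1.84 (log2 0.88 ± 0.12, SE; adjusted p = 0.00308, edgeR). Genes on the other strand, of which MCMDC2 had the largest part, covered 58.9% of the exon length of SNHG6. MCMDC2 was at 1.33 ± 0.292 CPM in DMSO libraries and 1.57 ± 0.512 CPM in AVJ16 libraries (SD, n = 3).

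ZFAS1 (chr20:49278178-49299600, plus strand; ENSG00000177410) is named as an antisense RNA of ZNFX1 and hosts SNORD12, SNORD12B and SNORD12C. It was at 68.2, 71.6 and 53.4 CPM with DMSO and at 91.0, 124 and 124 CPM with AVJ16. The groups did not overlap, and D was the lowest AVJ16 library. This was a fold change of 1.75 (log2 0.81 ± 0.16; adjusted p = 0.011, edgeR). The call was lost without DMSO library C, at an adjusted p of 0.0526.

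TAF1D (chr11:93729948-93784391, minus strand; ENSG00000166012) is the only host gene of the set annotated as protein coding. Its protein is a subunit of the selectivity factor that recruits RNA polymerase I to the ribosomal RNA promoter, and its introns host SNORA1, SNORA8, SNORA18, SNORA25, SNORA32, SNORA40, SNORD5 and SNORD6. It was at 134, 140 and 138 CPM with DMSO and at 236, 221 and 226 CPM with AVJ16. Both groups were narrow, and D was the highest library. TAF1D differed 1.66-fold (log2 0.73 ± 0.09; adjusted p = 0.00182, edgeR), the smallest adjusted p among the host genes.

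SNHG8 (chr4:118278703-118285316, plus strand; ENSG00000269893) hosts the box H/ACA snoRNA SNORA24. It was at 109, 109 and 95.4 CPM with DMSO and at 159, 185 and 174 CPM with AVJ16, without overlap. The increase was 1.66-fold (log2 0.73 ± 0.10; adjusted p = 0.00342, edgeR). PRSS12 had the largest part of the 37.6% of its exon length that lies opposite other exons, and was at 24.2 ± 2.08 CPM with DMSO and 27.0 ± 3.18 CPM with AVJ16 (adjusted p = 0.445). Neither the labels nor the study's methods say whether reads were counted by strand.

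SNHG1 (chr11:62851978-62855953, minus strand; ENSG00000255717), the long-known U22 host gene, hosts SNORD22 and SNORD25 to SNORD31. It was at 140, 143 and 122 CPM with DMSO and at 197, 206 and 210 CPM with AVJ16. All AVJ16 libraries, D included, were close to each other and above DMSO. Its fold change was 1.51 (log2 0.60 ± 0.10; adjusted p = 0.00578, edgeR).

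GAS5 (chr1:173858559-173868882, minus strand; ENSG00000234741), found as a growth arrest-specific transcript, hosts 10 box C/D snoRNAs, among them SNORD44 and SNORD47, and SNORA103. It was at 251, 245 and 233 CPM with DMSO and at 279, 419 and 404 CPM with AVJ16. Library D was above the highest DMSO library by less than the spread of the AVJ16 group, while E and F were far above it. The increase was 1.51-fold (log2 0.60 ± 0.15; adjusted p = 0.0298, edgeR). Without D the log2 fold change was 0.76 ± 0.07 (adjusted p = 3.45e-06).

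SNHG12 (chr1:28578538-28583132, minus strand; ENSG00000197989) hosts SNORA16A, SNORA44, SNORA61 and SNORD99. It was at 16.7, 15.1 and 14.5 CPM with DMSO and at 18.5, 28.3 and 26.1 CPM with AVJ16, again with D the closest to DMSO. Its fold change was 1.57 (log2 0.66 ± 0.16; adjusted p = 0.0296, edgeR). SNHG12 and GAS5 each kept their call in 5 of 11 alternative settings. Both lost it when the libraries were scaled by their size alone and when any of A, B, C, E or F was left out, with adjusted p up to 0.12 for SNHG12 and 0.118 for GAS5. SNHG6, TAF1D, SNHG8 and SNHG1 passed in 11 of 11.

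**Figure D2:**
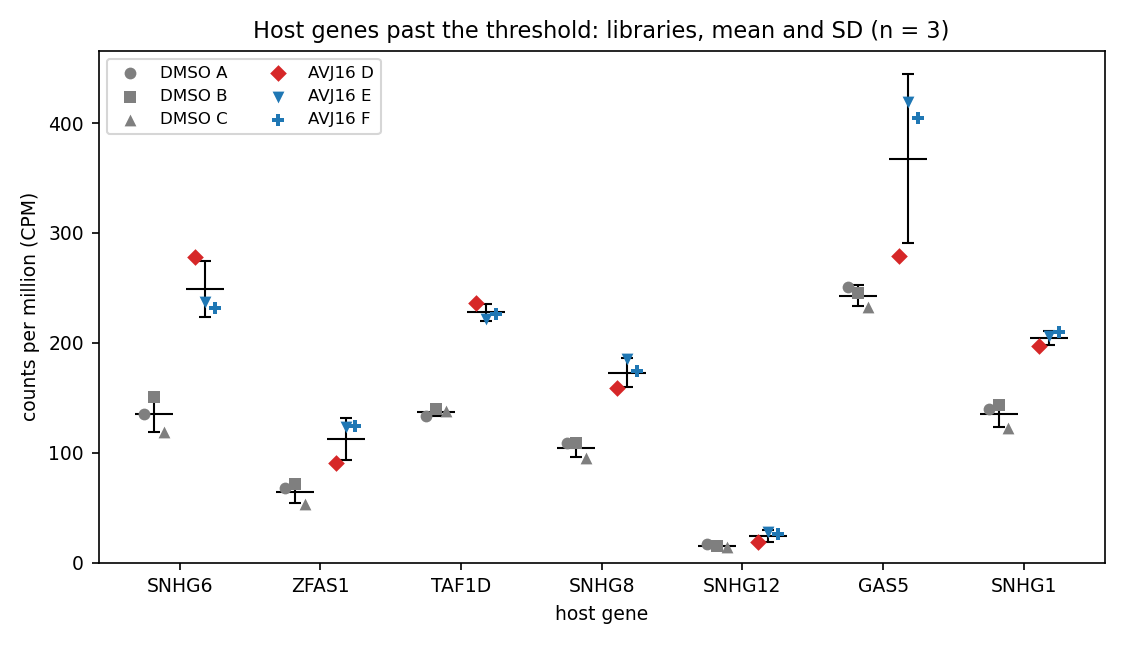
CPM of the 7 host genes past the threshold in each library, with the group mean (horizontal line) and SD (bars, n = 3), for DMSO (grey) and AVJ16 (D red, E and F blue). The groups do not overlap in any of the 7, and D lies below E and F in ZFAS1, SNHG8, SNHG12, GAS5 and SNHG1, by the most in GAS5 (279 against 419 and 404 CPM).

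The groups of libraries did not overlap in 9 host genes, the 7 that rose and SNHG32 and SNHG10, and in each of them AVJ16 was the higher group. Over all genes tested, AVJ16 was wholly above DMSO in 16.5% and wholly below in 20.6%. In the other 19 host genes the groups overlapped. Library size alone as the scaling moved the median log2 fold change over all genes by -0.11. With it, 5 host genes were higher and 0 lower, and the calls over all genes were 523 higher and 2215 lower, against 958 and 1432 with the main scaling.

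Of the 21 host genes that did not pass the test, 15 had a fitted log2 fold change above 0 and 6 below. The most abundant of them were SNHG29, SNHG5, SNHG16 and SNHG3. SNHG29, which hosts SNORD49A, SNORD49B and SNORD65, was at 656, 669 and 598 CPM with DMSO and at 660, 878 and 839 CPM with AVJ16. Library D lay within the DMSO range, and E and F above it. The log2 fold change was 0.31 ± 0.12 (adjusted p = 0.135, edgeR), and without D it was 0.42 ± 0.08 (adjusted p = 0.000862).

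SNHG5 hosts SNORD50A and SNORD50B. Its levels were 378, 368 and 329 CPM with DMSO and 364, 568 and 545 CPM with AVJ16. The log2 fold change was 0.46 ± 0.16 (adjusted p = 0.0928, edgeR), and 0.64 ± 0.08 without D (adjusted p = 3.25e-05). SNHG5 had the same arrangement as SNHG29, with D inside the DMSO range.

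SNHG3 hosts both copies of the U17 snoRNA, SNORA73A and SNORA73B, and was at 123, 107 and 109 CPM with DMSO and at 120, 195 and 175 CPM with AVJ16. The log2 fold change was 0.53 ± 0.17 (adjusted p = 0.0625, edgeR), and 0.71 ± 0.08 without D (adjusted p = 2.16e-05). Library D was below DMSO library A. Exons of other genes, RCC1 the largest, cover 5.9% of the exon length of SNHG3 on the same strand, and RCC1 was at 253 ± 20.4 CPM with DMSO and 310 ± 26.3 CPM with AVJ16.

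SNHG16, which hosts SNORD1A, SNORD1B and SNORD1C, was at 302, 288 and 322 CPM with DMSO and at 281, 398 and 362 CPM with AVJ16. Library D was below all DMSO libraries. The log2 fold change was 0.19 ± 0.13 (adjusted p = 0.365, edgeR), and without D it was 0.32 ± 0.08 (adjusted p = 0.00633).

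SNHG19 hosts SNORD60 and showed the widest spread within the AVJ16 group relative to its mean. It was at 22.7, 17.5 and 22.2 CPM with DMSO and at 9.27, 41.1 and 37.2 CPM with AVJ16. Library D was far below DMSO and E and F far above it. The log2 fold change of 0.50 ± 0.43 (adjusted p = 0.474, edgeR) became 0.92 ± 0.11 without D (adjusted p = 2.44e-05). SNHG15, the host of SNORA9, was likewise at 30.04, 28.7 and 31.4 CPM with DMSO, 23.1 CPM in D, and 44.9 and 44.7 CPM in E and F (adjusted p = 0.367 with D and 0.000122 without it, edgeR).

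SNHG7 hosts SNORA17A and SNORA17B and was at 46.6, 50.04 and 41.3 CPM with DMSO and at 47.6, 76.2 and 69.9 CPM with AVJ16. D lay within the DMSO range (log2 0.49 ± 0.17; adjusted p = 0.0879, edgeR). Exons on the other strand, those of DIPK1B foremost, covered 30.3% of its exon length, and DIPK1B was at 50.2 ± 1.74 CPM with DMSO and 32.9 ± 10.0 CPM with AVJ16 (adjusted p = 0.0793).

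SNHG32, host of SNORD48 and SNORD52, was at 25.5, 23.4 and 23.2 CPM with DMSO and at 25.7, 38.9 and 40.1 CPM with AVJ16. D was just above the highest DMSO library (log2 0.54 ± 0.17; adjusted p = 0.0631, edgeR). SNHG17, which hosts the SNORA71A to SNORA71D group, was at 21.9, 21.7 and 20.7 CPM with DMSO and at 18.9, 30.5 and 28.8 CPM with AVJ16 (log2 0.28 ± 0.17; adjusted p = 0.306). SNHG7, SNHG32 and SNHG17 all passed the test without D, at adjusted p of 6.54e-05, 2.4e-05 and 0.000971.

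SNHG4, which hosts SNORA74A and SNORA74D, was the only abundant host gene with a fitted fold change below 0. It was at 37.6, 32.3 and 38.7 CPM with DMSO and at 24.9, 32.4 and 30.6 CPM with AVJ16. The groups overlapped, since E was slightly above B. The log2 fold change was -0.30 ± 0.13 (unadjusted p = 0.0479 and adjusted p = 0.158, edgeR), and it was below 0 in 11 of 11 alternative settings without passing in any.

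**Figure D3:**
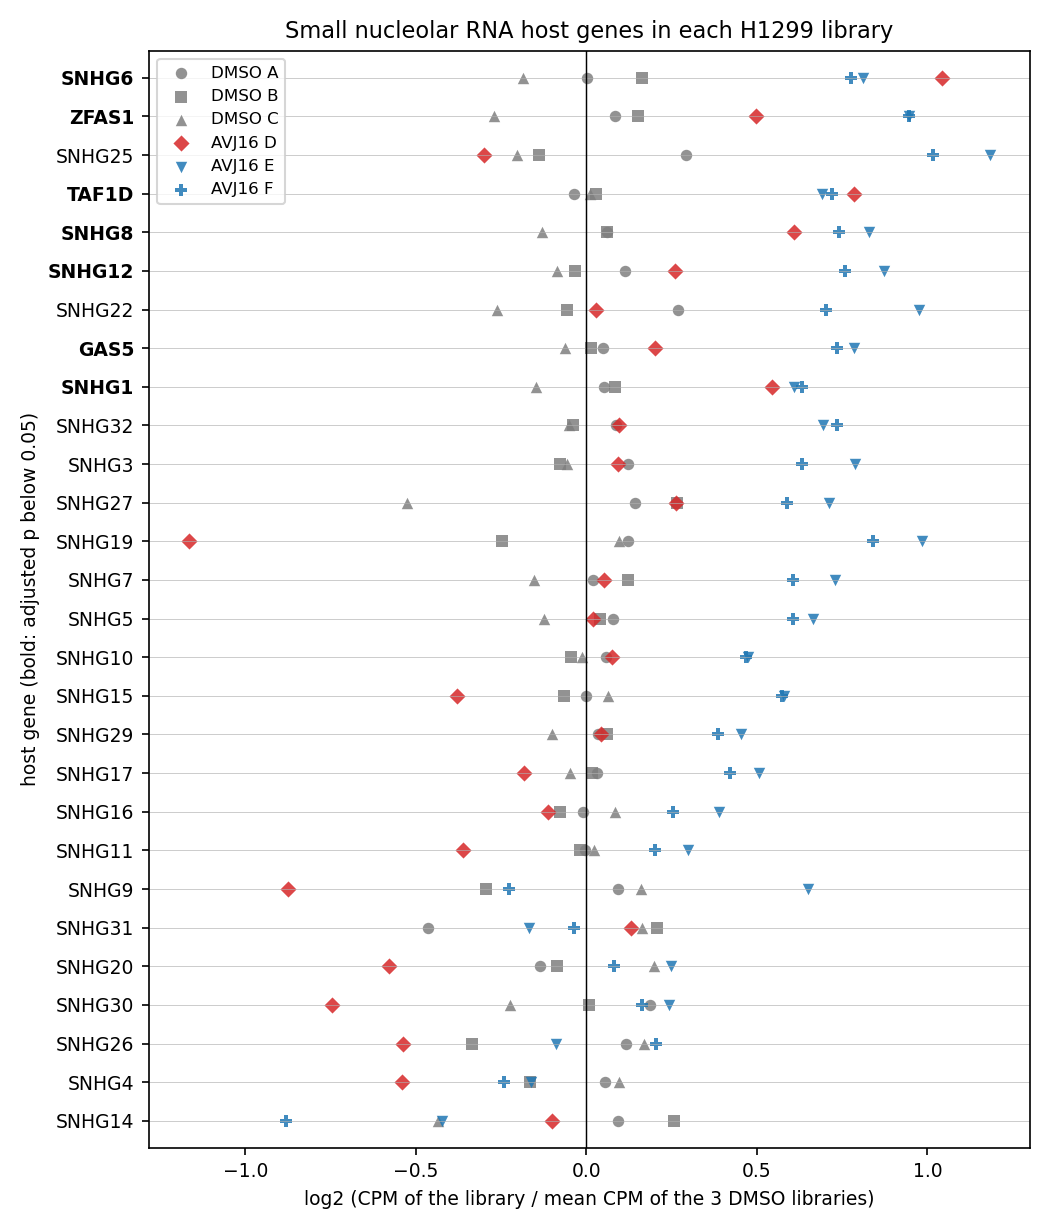
Each row is a host gene, and points give the log2 ratio of its CPM in a library to the mean CPM of the 3 DMSO libraries, for DMSO (grey) and AVJ16 (D red diamonds, E and F blue); names in bold passed the test. E and F lie above all DMSO libraries in 21 of the 28 host genes, and D lies below both of them in 24.

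The remaining 11 tested host genes had mean levels under 20 CPM in both groups. SNHG10, the host of SCARNA13, was at 13.5, 12.6 and 12.9 CPM with DMSO and 13.7, 18.08 and 17.997 CPM with AVJ16, without overlap (log2 0.35 ± 0.14; adjusted p = 0.117, edgeR). SNHG25, SNHG22 and SNHG27 had fitted log2 fold changes of 0.79 ± 0.35, 0.63 ± 0.30 and 0.51 ± 0.26 at group means of 0.761 to 2.68 CPM, and did not pass (adjusted p of 0.161, 0.184 and 0.219). The standard error of GAS5, by comparison, was 0.15.

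SNHG11, SNHG9, SNHG31, SNHG20, SNHG30 and SNHG26 had fitted log2 fold changes between -0.09 and 0.08, with adjusted p of 0.801 or above. Their sign changed with the scaling or with the library left out. SNHG14, the imprinted transcript that runs antisense to UBE3A, had the lowest fitted log2 fold change, -0.47 ± 0.25 (adjusted p = 0.245, edgeR), at 3.03, 3.39 and 2.099 CPM with DMSO and 2.65, 2.12 and 1.54 CPM with AVJ16. It passed the test only without D, at -0.68 ± 0.23 (adjusted p = 0.0301). UBE3A was at 135 ± 9.38 CPM with DMSO and 155 ± 25.5 CPM with AVJ16. SNHG21 failed the filter, with 8, 6 and 7 counts in A, B and C and 9, 13 and 12 counts in D, E and F.

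The level of library D relative to E and F differed between host genes. D stood at 94.96%, 106% and 119% of the mean of E and F in SNHG1, TAF1D and SNHG6, and at 88.5% in SNHG8, the 4 genes that passed in every alternative. In SNHG31 it stood at 118% and in SNHG14 at 145%. In the other 22 host genes it stood between 23.7% (SNHG19) and 79.1% (SNHG4). A level of D near E and F also narrows the spread within AVJ16 that the test uses. Passing in every alternative is therefore not independent of that level. D was below E and F in 85.7% of the tested host genes and in 43.1% of all genes tested. It was below all DMSO libraries in 11 host genes, within their range in 8 and above it in 9.

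Without D, SNHG25, SNHG22, SNHG32, SNHG3, SNHG19, SNHG7, SNHG5, SNHG10, SNHG15, SNHG29, SNHG17 and SNHG16 joined the 7 genes called higher, and the median log2 fold change of the 28 was 0.61 against -0.01 over all genes. Those calls rest on 2 AVJ16 libraries. E and F were above every DMSO library in 21 of the 28 host genes and in 29.6% of all genes tested.

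Library D also differed from E and F by transcript length, as annotated for the canonical transcript. Over all genes tested with a length, the median level of D was 85.6% of the mean of E and F for 1438 transcripts of 500 to 1000 bases, 87.6% for 3208 of 1000 to 2000 bases, and 113% for 5664 of 4000 bases or more. The 419 transcripts under 500 bases had a median of 93.5%. Among host genes the shortest transcripts, SNHG25 (311 bases), SNHG9 (339 bases) and SNHG19 (394 bases), had the lowest ratios, at 37.9%, 45.0% and 23.7%. SNHG25 and SNHG9 had only 28 and 37 counts in D. The abundant SNHG29 (443 bases) and SNHG16 (498 bases), also under 500 bases, were at 76.9% and 73.9%. Across the 28 host genes Spearman's rho between length and ratio was 0.45, and across 16273 genes it was 0.31. These are correlations across genes that share the same libraries. In each of the 5 length classes, which held 3 to 11 host genes, the median of the host genes was lower than that of all genes, at 45.0% to 88.5% against 85.6% to 113%. When mitochondrially encoded genes were left out of the fit, 7 host genes were higher and 0 lower. Their median log2 fold change was then 0.475, against 0.474 in the main fit. That setting compared the treatments and not D with E and F. Whether the mitochondrial share or the length pattern of D has a part in the lower host gene levels was not tested.

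**Figure D4:**
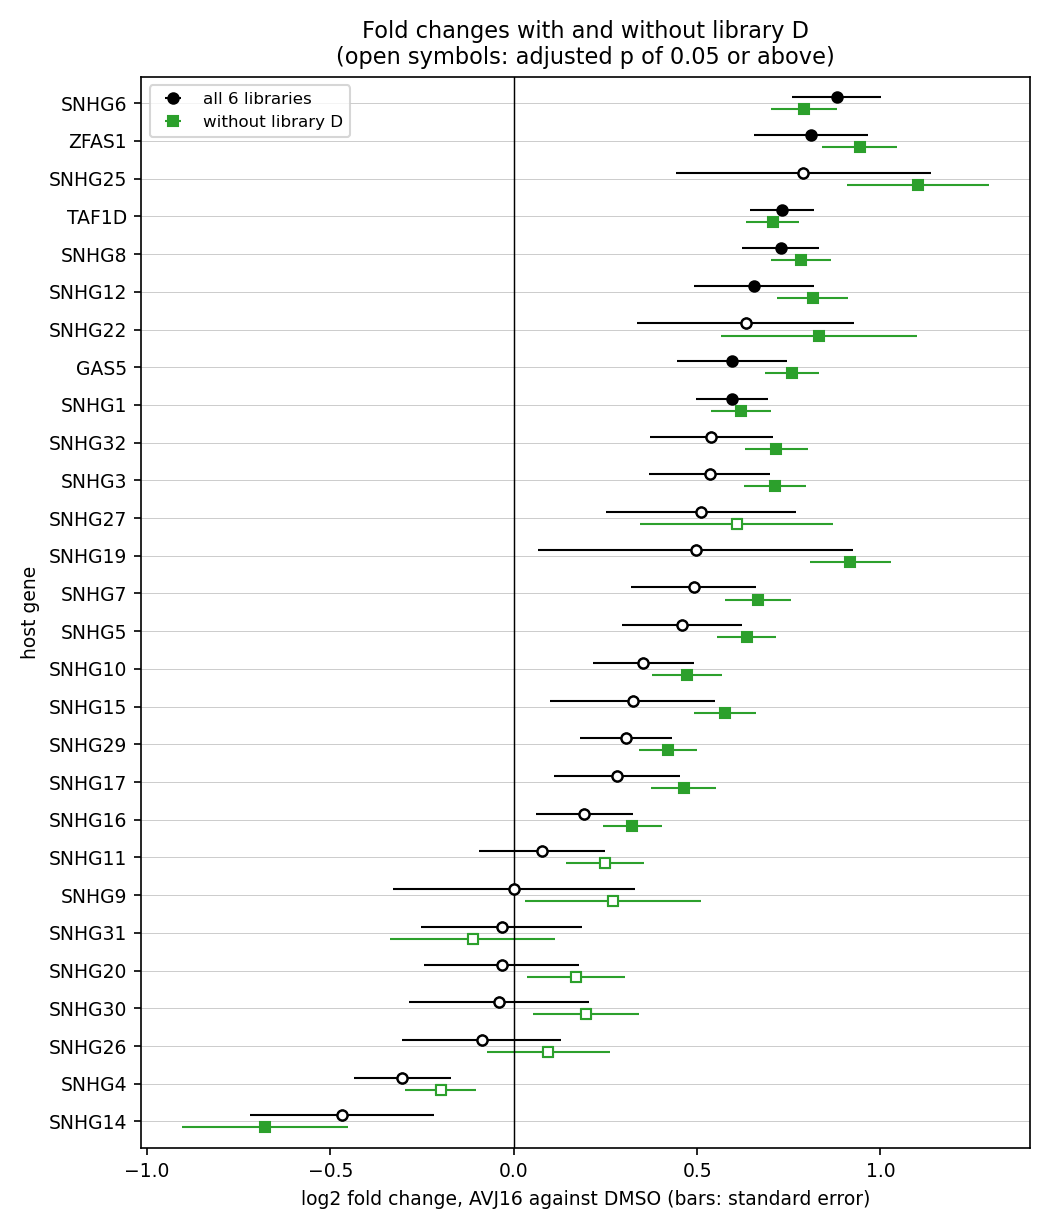
Log2 fold change of each host gene, AVJ16 against DMSO, with its standard error, from all 6 libraries (black) and without AVJ16 library D (green); open symbols did not pass an adjusted p of 0.05. With all libraries 7 host genes passed, and without D 19 passed as higher and SNHG14 as lower.

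Levels per kilobase of merged exons put the host genes in an order that depends on the isoforms annotated for each. In DMSO libraries the order began with SNHG29 (71.7 CPM per kb), SNHG6 (53.5), SNHG16 (52.6), GAS5 (49.3), SNHG1 (34.0) and SNHG19 (33.9). SNHG6 and SNHG16, and SNHG1 and SNHG19, differed by less than the spread of their libraries. With AVJ16 the mean of SNHG6 was 98.5 CPM per kb, that of SNHG29 88.6 and that of GAS5 74.5. SNHG6 was above SNHG29 only in D (110.2 against 73.8), and SNHG29 was the higher in E (98.2 against 93.8) and F (93.7 against 91.6). SNHG14, whose merged exons span 122609 bases, was the lowest at 0.0232 CPM per kb. The merged length counts exons of every annotated isoform, 91 transcripts for GAS5 and 8 for SNHG6, so it exceeds the length of the RNA that H1299 cells make. The excess was unequal. Merged and canonical lengths were 8947 and 443 bases in SNHG29, 5776 and 498 in SNHG16, 4932 and 768 in GAS5, and 2527 and 1821 in SNHG6. The order by merged length, SNHG6 against SNHG29 included, therefore cannot rank the amounts of these RNAs.

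The genes that act on or resemble the host RNAs were counted from lists chosen with earlier results of these data known. Some genes belong to more than one list. The counts below stand beside 5.87% of all genes called higher and 8.77% lower, or 17.6% and 19.6% without D. Of 3 other noncoding snoRNA hosts that passed the filter, 1 rose and 0 fell (2 higher and 0 lower at an unadjusted p below 0.05; 1 and 0 with DESeq2), and without D 2 rose and 0 fell. EPB41L4A-AS1 rose from 34.1 ± 2.75 CPM to 48.6 ± 7.95 CPM (SD, n = 3; log2 0.51 ± 0.14; adjusted p = 0.0397, edgeR). For CCT6P1 the log2 value was 0.55 ± 0.18 (adjusted p = 0.0666) and for DANCR -0.06 ± 0.13 (adjusted p = 0.809).

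Protein-coding hosts of intronic snoRNAs, ribosomal protein genes aside, showed calls in both directions. Of 25 tested, 2 rose and 2 fell, with a median log2 fold change of 0.06 (4 higher and 4 lower at an unadjusted p below 0.05; 3 and 1 with DESeq2). Without D, 6 of the 25 rose and 6 fell. EIF4A2, an eIF4A helicase paralog, rose from 397 ± 15.2 to 721 ± 34.2 CPM (log2 0.86 ± 0.09; adjusted p = 0.00146, edgeR), and the chaperone HSPA8 rose with a log2 fold change of 0.48 ± 0.10 (adjusted p = 0.0173). EIF4G2, a translation initiation factor, and TOMM20, a mitochondrial import receptor, had log2 fold changes of -0.49 ± 0.11 (adjusted p = 0.02) and -0.33 ± 0.09 (adjusted p = 0.0464).

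Of 23 other mRNAs known to carry TOP tracts, 3 rose and 0 fell, with a median log2 fold change of 0.23 (8 higher and 0 lower at an unadjusted p below 0.05; 6 and 0 with DESeq2). EIF3H, a subunit of initiation factor eIF3, changed by a log2 value of 0.44 ± 0.09 (adjusted p = 0.0163, edgeR), VIM of 0.39 ± 0.11 (adjusted p = 0.0449) and the nucleolar chaperone NPM1 of 0.47 ± 0.14 (adjusted p = 0.049). Without D, 11 of the 23 rose and 1 fell, against 17.6% and 19.6% of all genes. Of 79 ribosomal protein genes, 5 rose and 0 fell, a share of higher calls close to the 5.87% of all genes, with a median of 0.16 (13 and 0 unadjusted; 10 and 0 with DESeq2), among them RPL11, RPL38, RPL12 and RPS25 with log2 fold changes of 0.43 ± 0.11, 0.39 ± 0.10, 0.43 ± 0.12 and 0.40 ± 0.11. Without D, 51 of the 79 rose and 0 fell, against 17.6% and 19.6% of all genes.

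Among 21 factors of nonsense-mediated decay, 3 rose and 0 fell, with a median log2 fold change of 0.07 (4 higher and 0 lower at an unadjusted p below 0.05; 3 and 0 with DESeq2). SMG9, a regulator of the SMG1 kinase that phosphorylates UPF1, rose from 175 ± 8.73 to 326 ± 35.8 CPM (log2 0.90 ± 0.11; adjusted p = 0.00193, edgeR). UPF3B and its paralog UPF3A, which link the exon junction complex to UPF2, had log2 fold changes of 0.55 ± 0.12 (adjusted p = 0.0149) and 0.45 ± 0.12 (adjusted p = 0.0356). UPF2 had 0.31 ± 0.13 (adjusted p = 0.141). Without D, 3 of the 21 rose and 2 fell, with a median of -0.01, beside 17.6% and 19.6% of all genes.

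Of 34 enzymes and cofactors of general RNA decay, 2 rose and 2 fell, shares close to those of all genes (5.87% and 8.77%), with a median log2 fold change of 0.01. At an unadjusted p below 0.05, 2 of these were higher and 6 lower, and with DESeq2 2 and 2. Without D, 6 rose and 10 fell. PATL1, which promotes decapping, and the exosome subunit EXOSC7 had log2 fold changes of 0.48 ± 0.11 (adjusted p = 0.0239, edgeR) and 0.45 ± 0.11 (adjusted p = 0.0279). EDC3, an enhancer of decapping, and WDR61, a subunit of the cytoplasmic SKI complex, had -0.72 ± 0.12 (adjusted p = 0.00583) and -0.72 ± 0.11 (adjusted p = 0.00466). Of 20 snoRNP proteins and assembly factors, 1 rose and 1 fell, with a median of 0.16 (3 and 1 unadjusted; 1 and 1 with DESeq2). Without D, 6 of the 20 rose and 2 fell. The box C/D assembly factor ZNHIT6 was higher by a log2 value of 0.44 ± 0.12 (adjusted p = 0.0469) and the H/ACA assembly factor SHQ1 differed by -0.53 ± 0.12 (adjusted p = 0.0173).

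Of 10 mRNAs of the integrated stress response, a program that lowers general translation and favours mRNAs such as that of ATF4, 8 rose and 0 fell, with a median log2 fold change of 1.09 (8 and 0 unadjusted; 8 and 0 with DESeq2). Without D, 9 rose and 0 fell. DDIT3, a transcription factor of this response, rose from 17.8 ± 0.575 to 47.3 ± 4.49 CPM (log2 1.41 ± 0.11; adjusted p = 0.000657, edgeR), and PPP1R15A, which directs removal of the phosphate from eIF2 alpha, from 28.2 ± 5.78 to 70.7 ± 7.86 CPM (log2 1.32 ± 0.16; adjusted p = 0.00182). GADD45A and GADD45B had log2 fold changes of 1.20 ± 0.10 and 1.01 ± 0.13. ATF4 mRNA itself was at 396 ± 34.1 CPM with DMSO and 354 ± 41.9 CPM with AVJ16 (adjusted p = 0.392). The lists share these libraries with the host genes and are given beside them as values.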

How the data were processed

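H1299 poly(A) RNA was sequenced as single-end reads from stranded KAPA libraries. Per the labels and the study's methods, the authors trimmed reads with cutadapt 2.10, aligned them to GRCh38 with TopHat2 2.1.1 and counted them with HTSeq 2.01 on Ensembl release 99. The deposited table held raw counts per gene, with a smallest sum of 10 over the libraries, and 6 columns of counts normalised with DESeq2 1.36.0, which were not used, as were the authors' own fold changes and p-values. Column groups were read from the condition bar of the study's heat map, since the labels give no column letters.

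Counts were scaled by TMM, filtered with filterByExpr (minimum count 10, total 15) and tested over all genes with edgeR 4.0.16 (R 4.3.3; prior count 0.125; DESeq2 1.42.0 as an alternative), after tests on simulated data. Host genes and lists were chosen with earlier results of these data known. All host genes were accounted for, those past the threshold or with a mean of at least 20 CPM in every library, and up to 4 genes a list by smallest p. Positions came from GENCODE 44 and snoRNA positions from RefSeq, whose table gives no strand.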

Additional observations from a re-analysis of the deposited data

How the results depend on the processing

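The median log2 fold change of the host genes stayed above 0 in all 11 alternatives, at 0.32 to 0.61 when a library was left out. The DESeq2 Wald test called 11 host genes higher, adding SNHG32, SNHG3, SNHG7 and SNHG5. Leaving out a library gave 4 to 19 host genes higher and 0 to 1 lower, with 4 without DMSO library C and 19 without AVJ16 library D, and over all genes 231 to 2958 higher and 527 to 3292 lower. Library size alone gave 523 genes higher and 2215 lower. The sign changed for 6 genes that were never called. With library size alone SNHG11 was at -0.0279 and SNHG9 at -0.105. Leaving out a library took SNHG11 from -0.0432 (without E) to 0.249, SNHG9 from -0.474 to 0.27, SNHG31 from -0.208 to 0.0987, SNHG20 from -0.194 to 0.169, SNHG30 from -0.197 to 0.198 and SNHG26 from -0.263 to 0.0943, all log2 fold changes. The causes were not tested. The largest standard errors were those of SNHG19 and of host genes under 5 CPM. No paired analysis was possible because the columns carry no replicate numbers.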
